A study of Mus musculus with 6 samples.

Results

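Metallothioneins and the transporters of copper and platinum were followed in mouse T cells after co-culture with ID8 ovarian cancer cells. The 9 genes were the metallothioneins Mt1 and Mt2, the copper importers Slc31a1 and Slc31a2, the copper-pumping ATPases Atp7a and Atp7b, the copper chaperone Atox1, and the drug efflux pumps Abcc1 and Abcc4. They were chosen by gene name from the 54532 genes of the deposited table, each matched a single row, and all 9 passed the filter on low values (an average of 0.5 FPKM or more). FPKM is a read count divided by the gene's length and by the size of the library.

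RNA was sequenced from 6 libraries of T cells. In 3 libraries the partner cells had received cisplatin before co-culture (cisplatin), and in 3 they had received PBS (control). The sample labels attach 40 µM cisplatin to the first group, and the methods place the drug on the ID8 cells before co-culture. ID8 is a cancer line derived from mouse ovarian surface epithelium, and its transcripts cannot be told from those of T cells by species. In both groups the T cells came from spleens of young adult C57BL/6 mice by negative selection, were kept in IL-2, and were pre-activated on beads carrying antibodies against CD3 and CD28. The study's text speaks of biological replicates and of independent samples, without saying whether the libraries of a group came from separate mice or from separate cultures, so the p-values measure the spread between these libraries, whatever its source. No gene was altered on purpose in either group.

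Each library held between 30606569 and 32169496 reads on genes, rebuilt from the FPKM. The groups differed in their cell markers. All 22 T-cell identity markers passed the test in the higher direction with cisplatin-pretreated ID8 cells (adjusted p under 0.05, limma), with a median log2 fold change of 0.58 and a summed level of 3300 to 3378 FPKM against 2071 to 2209 FPKM in the control libraries. Of 26 ID8 tumour markers, 21 were tested and 19 fell, with a median log2 fold change of -2.34, and their summed level was 402 to 407 FPKM against 2036 to 2145 FPKM. The 10 B-cell markers all rose (median 0.60, summed level 3652 to 3724 FPKM against 1710 to 1798 FPKM), although the label is T cells. Of 13 myeloid markers, 11 were tested, of which 8 rose and 2 fell (summed level 161 to 184 FPKM against 125 to 131 FPKM). No marker of these lists was at 0 in all libraries. In such bulk samples, fewer cells of a type and less RNA per cell cannot be told apart, and the part of these markers in the results below was not tested.

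Metallothioneins are small proteins rich in cysteine that bind zinc, copper and cadmium through their thiol groups, and the same thiols bind platinum drugs. Their transcription is driven mainly by the zinc-sensing factor MTF1, which binds metal response elements (MREs) upstream of the genes. Copper enters cells through SLC31A1, is handed by the chaperone ATOX1 to the ATPases ATP7A and ATP7B, and leaves the cell or enters the secretory route through these pumps. Cisplatin has been studied as a cargo of the same route, and loss or gain of these genes is a classical subject of platinum resistance in ovarian cancer.

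Because metal control of Mt1 and Mt2 is written in their promoters, the window at the RefSeq start of each is shown before the values. The sequences are from RefSeq on GRCm38.p6 and run 5′ to 3′ on the plus strand. They cover the 250 bases before the RefSeq start of transcription and the first 30 bases transcribed from that start. Mt1 is shown at chr8:94178839-94179118 and Mt2 at chr8:94172368-94172647. The deposited table starts Mt2 at 94172664, after the end of this window. All bases shown for Mt2 therefore lie upstream of the gene as it was counted. Capitals mark each match to the MRE core, searched as TGCACNC or TGCGCNC on both strands.
Mt1: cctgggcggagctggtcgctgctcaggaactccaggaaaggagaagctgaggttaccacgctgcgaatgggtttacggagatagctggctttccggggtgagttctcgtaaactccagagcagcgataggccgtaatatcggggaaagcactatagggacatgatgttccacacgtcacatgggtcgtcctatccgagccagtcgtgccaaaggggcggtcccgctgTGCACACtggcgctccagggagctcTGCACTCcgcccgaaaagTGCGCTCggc
Mt2: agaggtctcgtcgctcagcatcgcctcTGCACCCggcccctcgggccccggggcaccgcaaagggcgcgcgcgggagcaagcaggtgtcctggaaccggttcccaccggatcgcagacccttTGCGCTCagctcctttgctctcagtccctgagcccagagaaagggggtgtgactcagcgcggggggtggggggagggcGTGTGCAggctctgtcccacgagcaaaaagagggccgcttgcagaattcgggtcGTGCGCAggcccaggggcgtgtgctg
In the Mt1 window all 3 matches lie close to the RefSeq start, at positions -23, 2 and 20 for their first base. Positions are counted from 0 at the first base transcribed in RefSeq. RefSeq gave 1 start for Mt1, whose gene has 3 annotated transcripts. Bases after the window were not searched, so matches near a start further downstream would be missed. In the Mt2 promoter the 4 matches are spread over the window, at -223, -128, -50 and 4, the last 2 on the minus strand. The Mt2 promoter also held a match to the antioxidant response core (TGACNNNGC, both strands) at -79, which overlapped no MRE match.

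The promoter table had entries for 8 of the 9 genes, and Abcc1 was not analysed for motifs. Within windows of 300 bases (250 before the start and 50 after), at least 3 MRE core matches were held by 1.97% of all 32851 promoters and at least 4 by 0.517%. Atp7a and the first of 2 Abcc4 starts held 2 matches each, a number reached by 7.11% of promoters. Slc31a2 and Atp7b held 1 match each, as did or exceeded 25.7% of promoters. The Slc31a2 window, chr4:62286179-62286478, belongs to a RefSeq start inside the gene as it was counted (62262562 to 62298411). The RefSeq start of Atp7b, on the minus strand, also lies inside the gene as counted (21992785 to 22060305). Most of its window, chr8:22060025-22060324, including the MRE match, therefore falls within that gene. Slc31a1, Atox1 and the second Abcc4 start held none. Within these windows an antioxidant core match was found for Mt2, Slc31a2, Atox1 and both Abcc4 starts, against 12.4% of all promoters. Bases outside the windows were not searched, so a gene without a match here may hold one nearby. The windows of most of these genes were also rich in G and C, at 60.7% for Mt1 and 67.7% for Mt2 beside a median of 52.7% over all promoters. A match is a description of letters and says nothing on whether a factor bound there.

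**Figure D1:**
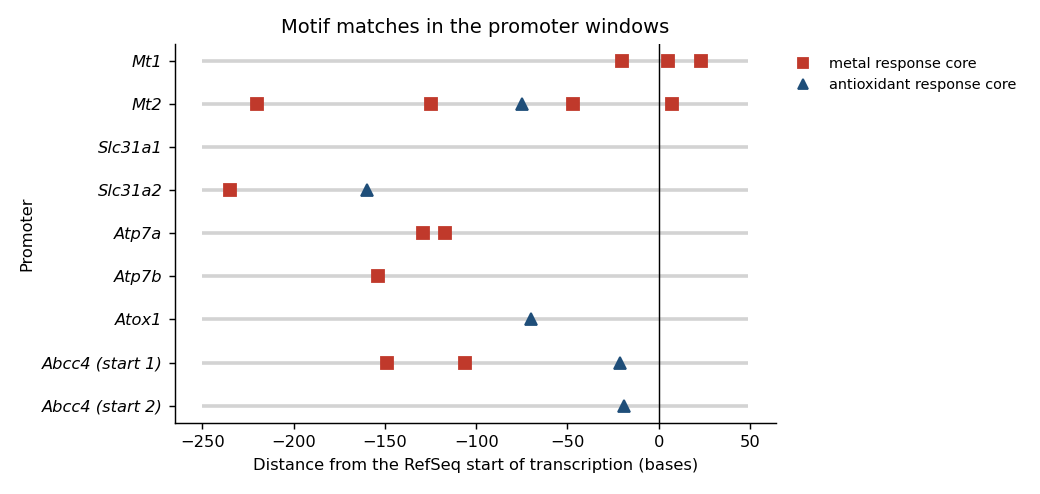
Matches to the metal response core (squares) and the antioxidant response core (triangles) in the promoter windows (grey lines), placed at the centre of each match. The x axis is the distance from the RefSeq start of transcription in bases. Mt1 and Mt2 hold 3 and 4 metal response matches, and no other window holds more than 2.

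The comparison asks how T-cell libraries differ when the cancer cells they met had been exposed to cisplatin. A gene passed the test at an adjusted p-value under 0.05 and was called if its log2 fold change was also 1 or more in either direction, by limma on log2(FPKM + 0.1) over 15874 genes. Of the 9 genes, 8 had lower means with cisplatin-pretreated ID8 cells and 1, Atox1, a higher one. In the lower direction 7 passed the test and 4 were called (Mt1, Mt2, Atp7a and Atp7b). None passed in the higher direction. Among all tested genes, 29% passed lower and 27.5% passed higher, 12.8% were called lower and 4.11% were called higher. All cisplatin libraries lay below all control libraries for 8 of the 9 genes (all but Atox1), against 32.3% of all tested genes, and for none of the 9 did they lie above, against 31.9%. The median log2 fold change of the 9 genes was -0.66, beside 0.03 over all tested genes.

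**Figure D2:**
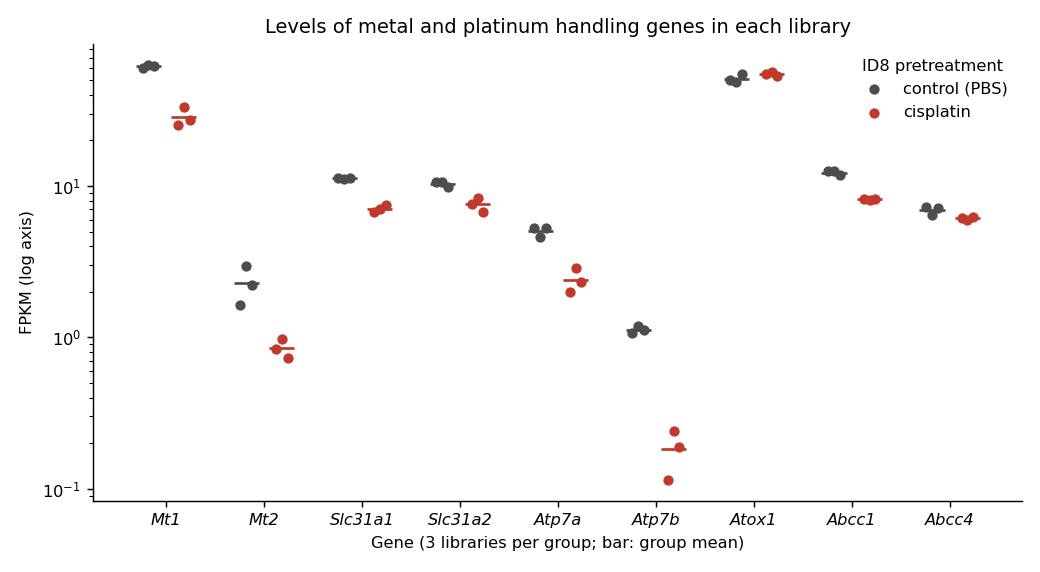
FPKM of each gene in each library on a log axis, with control libraries in grey and cisplatin libraries in red (3 per group, bars at the group mean). The groups are separate for every gene except Atox1, and the widest gap is that of Atp7b.

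Mt1 was the most abundant of the 9 genes in the control libraries and fell by 1.12 on the log2 scale. Mt1 (ENSMUSG00000031765) lies on chromosome 8 of GRCm38, plus strand, from 94179082 to 94180327. Its level was 60.5, 63.3 and 62.0 FPKM in control replicates 1, 2 and 3, and 25.3, 33.1 and 27.1 FPKM in cisplatin replicates 1, 2 and 3. The control libraries were tightly grouped, and the highest cisplatin library, replicate 2, stood well below the lowest of them. The means were 61.9 ± 1.35 FPKM and 28.5 ± 4.08 FPKM (SD, n = 3), on 2265 to 2370 rebuilt reads per control library and 1022 to 1368 per cisplatin library. The difference was larger than the spread between replicates (SE 0.10, 95% interval -1.35 to -0.90, adjusted p = 8.0e-05, limma). Mt1 was the only 1 of the 9 that was called under all 17 alternative settings.

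Mt2 fell in the same direction at a far lower level. Mt2 (ENSMUSG00000031762) is the neighbour of Mt1, plus strand, from 94172664 to 94173568, and ends 5514 bases before Mt1 starts. Its level was 1.64, 2.95 and 2.22 FPKM in the control libraries and 0.841, 0.975 and 0.735 FPKM in the cisplatin libraries. The groups did not overlap, but in FPKM control replicates 1 and 2 differed more from each other than control replicate 1 did from the cisplatin libraries. The log2 fold change was -1.29 (SE 0.23, 95% interval -1.85 to -0.73, adjusted p = 0.0031, limma), from 2.27 ± 0.655 FPKM to 0.850 ± 0.120 FPKM (SD, n = 3). These values rest on 29, 52 and 40 reads in the control libraries and 16, 19 and 14 in the cisplatin libraries. The antisense gene Gm45774 overlaps Mt2, was listed at 0 in 5 libraries and held 0.0122 FPKM in control replicate 3. Strand handling is not given in the sources used here.

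The ratio of Mt2 to Mt1 within a library does not depend on scaling between libraries. It was 0.0271, 0.0466 and 0.0358 in the control libraries and 0.0332, 0.0294 and 0.0271 in the cisplatin libraries. The groups overlapped, and the difference of -0.26 on the log2 scale did not exceed the spread (two-sided exact permutation test, p = 0.4, adjusted p = 0.4 over 4 ratios). Its size rested on single libraries, since it was -0.06 without control replicate 2 and -0.45 without control replicate 1. With 3 libraries against 3 the smallest p this test can give is 0.1.

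The remaining genes of the metallothionein cluster were near or at the detection floor. Mt3, which is best known from brain, had 13, 8 and 10 reads in the control libraries (0.406, 0.250 and 0.306 FPKM) and 0, 6 and 2 reads in the cisplatin libraries (0, 0.170 and 0.0579 FPKM), and was below the filter, so it was not tested. Mt4, a gene of stratified epithelia, had 0 reads in all 6 libraries. Around the cluster, 8 further genes of the table lie within 100 kb of Mt1 or Mt2, and 4 besides the metallothioneins reached the filter. Bbs2, which encodes a subunit of the ciliary BBSome, had 3.58 ± 0.254 FPKM in control and 3.45 ± 0.519 FPKM in cisplatin libraries (SD, n = 3), with a log2 fold change of -0.06 (adjusted p = 0.70, limma). Nup93, a nuclear pore scaffold gene, rose from 4.84 ± 0.0690 to 8.47 ± 0.0943 FPKM (log2 fold change 0.80, adjusted p = 1.3e-05, limma). The lincRNA Gm39228 and the pseudogene Rpl10-ps5 did not pass (log2 fold changes -1.69 and 0.37, adjusted p = 0.11 and 0.35, limma). Of the protein-coding neighbours tested, Nup93 therefore moved in the opposite direction to Mt1 and Mt2.

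Both copper importers passed as lower with less than a 2-fold change. Slc31a1 encodes CTR1, the high-affinity copper importer of the plasma membrane, and Slc31a2 its relative CTR2, found mostly on endosomes and lysosomes. The 2 genes lie on the plus strand of chromosome 4, Slc31a2 (ENSMUSG00000066152) from 62262562 to 62298411 and Slc31a1 (ENSMUSG00000066150) from 62360727 to 62391769, with 62316 bases between them. Slc31a1 had 11.4, 11.1 and 11.3 FPKM in the control libraries and 6.75, 7.09 and 7.43 FPKM in the cisplatin libraries. The control libraries were almost identical and the cisplatin libraries were all far below them. Slc31a1 had a log2 fold change of -0.66 (SE 0.05, 95% interval -0.78 to -0.54, adjusted p = 4.8e-05, limma). Cdc26, a gene on the opposite strand that overlaps the end of Slc31a1, held 3.79 to 4.39 FPKM over the 6 libraries.

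Slc31a2 had 10.6, 10.6 and 9.86 FPKM in the control libraries and 7.61, 8.36 and 6.77 FPKM in the cisplatin libraries. The groups were separate, with cisplatin replicate 2 nearest to the controls. Slc31a2 had a log2 fold change of -0.45 (SE 0.08, 95% interval -0.65 to -0.25, adjusted p = 0.0035, limma). The Slc31a2 to Slc31a1 ratio was 0.920 ± 0.0441 in control and 1.07 ± 0.142 in cisplatin libraries (SD, n = 3), and the groups overlapped (log2 difference 0.21, exact permutation test, p = 0.3, adjusted p = 0.4). The difference was 0.33 without cisplatin replicate 3 and 0.14 without cisplatin replicate 2.

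On log2(FPKM + 0.1), the copper ATPase gene Atp7b had the largest fold change of the 9 genes, whereas with a pseudocount of 1 Mt1 had it (-1.10, against -0.85 for Atp7b). ATP7A and ATP7B are P-type ATPases that load copper on enzymes in the Golgi and export it when it is in excess. ATP7A is used by most tissues, whereas ATP7B is the liver pump that is defective in Wilson disease. Atp7b (ENSMUSG00000006567), on the minus strand of chromosome 8 from 21992785 to 22060305, fell from 1.06, 1.19 and 1.12 FPKM in the control libraries to 0.114, 0.241 and 0.190 FPKM in the cisplatin libraries. Every control library held more than the highest cisplatin library by several fold, although Atp7b was the lowest of the 9 genes in both groups. The reads behind these values were 207, 232 and 223 in control and 24, 52 and 40 in cisplatin libraries. On log2(FPKM + 0.1) the fold change was -2.14 (SE 0.31, 95% interval -2.89 to -1.39, adjusted p = 0.0012, limma), and the plain ratio of the means, control over cisplatin, was 6.18.

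Atp7a (ENSMUSG00000033792), on the plus strand of chromosome X from 106027276 to 106124926, had 5.28, 4.59 and 5.26 FPKM in the control libraries and 1.98, 2.85 and 2.31 FPKM in the cisplatin libraries. The groups were separate, and cisplatin replicate 1 was the lowest library. Atp7a thus fell by 1.06 on the log2 scale (SE 0.14, 95% interval -1.40 to -0.73, adjusted p = 7.2e-04, limma). Its call lies at the edge of the fold threshold and was lost without cisplatin replicate 1, where the log2 fold change was -0.94 (adjusted p = 0.0017, limma).

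The fall of Atp7b was set against that of Atp7a within the same libraries. The Atp7b to Atp7a ratio was 0.201, 0.259 and 0.212 in the control libraries and 0.0575, 0.0845 and 0.0821 in the cisplatin libraries. These values did not overlap, and the difference was -1.60 on the log2 scale (exact permutation test, p = 0.1, the smallest possible, adjusted p = 0.2 over the 4 ratios), which the number of libraries does not allow to pass the threshold.

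Atox1 was the single gene of the 9 with a higher mean in the cisplatin libraries. Its product carries copper from the importer to both ATPases. Atox1 (ENSMUSG00000018585), on the minus strand of chromosome 11 from 55446641 to 55461239, had 50.0, 48.3 and 55.1 FPKM in the control libraries and 55.2, 57.1 and 53.2 FPKM in the cisplatin libraries. Control replicate 3 fell among the cisplatin values, so the groups overlapped. Its log2 fold change was 0.11 (SE 0.06, 95% interval -0.02 to 0.24) and did not pass (adjusted p = 0.14, limma). Without control replicate 3 it was 0.16 and passed (adjusted p = 0.023, limma).

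The efflux pumps had smaller fold changes than the ATPases. ABCC1 (MRP1) and ABCC4 (MRP4) are ABC transporters of the MRP family that export organic anions, ABCC1 with a preference for glutathione conjugates and ABCC4 for cyclic nucleotides and prostaglandins. Abcc1 (ENSMUSG00000023088), on the plus strand of chromosome 16 from 14361558 to 14475737, had 12.5, 12.5 and 11.8 FPKM in the control libraries and 8.22, 8.05 and 8.15 FPKM in the cisplatin libraries. The cisplatin libraries were nearly equal and all below the controls. Abcc1 had a log2 fold change of -0.58 (SE 0.04, 95% interval -0.69 to -0.48, adjusted p = 4.6e-05, limma).

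Abcc4 (ENSMUSG00000032849), on the minus strand of chromosome 14 from 118482692 to 118706219, had 7.28, 6.44 and 7.15 FPKM in the control libraries and 6.18, 5.94 and 6.25 FPKM in the cisplatin libraries. Although the groups were separate, the gap between control replicate 2 and the nearest cisplatin library was small. Abcc4 had a log2 fold change of -0.18 (SE 0.06, 95% interval -0.33 to -0.03) and missed the threshold narrowly (adjusted p = 0.0501, limma). Without control replicate 2 it was -0.23 and passed (adjusted p = 0.019, limma). The Abcc4 to Abcc1 ratio was 0.584, 0.514 and 0.609 in the control libraries and 0.752, 0.738 and 0.767 in the cisplatin libraries, without overlap (log2 difference 0.41, exact permutation test, p = 0.1, adjusted p = 0.2).

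**Figure D3:**
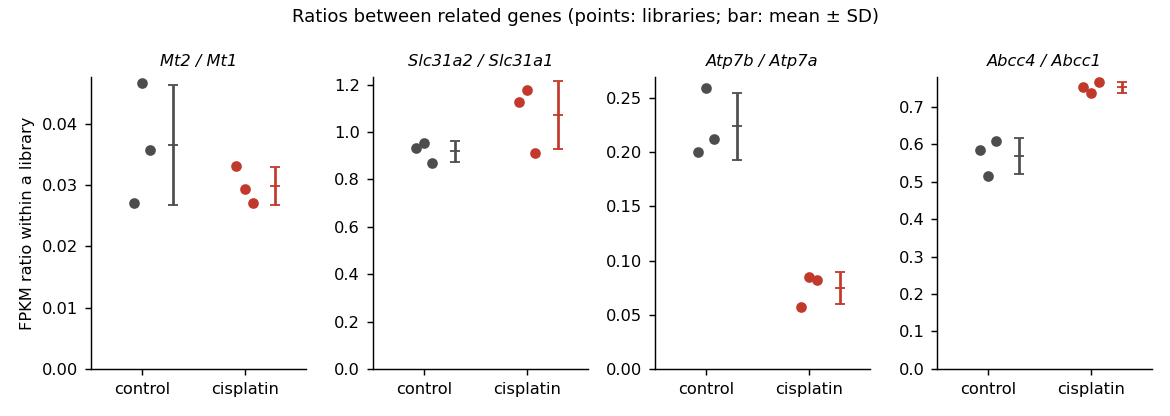
Ratios of FPKM between related genes within each library, with control libraries in grey and cisplatin libraries in red (points are libraries, bars are the mean ± SD, n = 3, and each y axis starts at 0). Atp7b to Atp7a and Abcc4 to Abcc1 do not overlap between the groups, and Mt2 to Mt1 and Slc31a2 to Slc31a1 do.

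On the FPKM scale levels are per length, and the length used was that of all exons of a gene joined. For Mt1 it was 1246 bases, where the first annotated transcript has 549, and for Atox1 both were 541. The order and the percentiles, including the place of Atox1 above Mt1 below, can differ with another length, which was not tested. With the lengths used, the order of the control means was Mt1, Atox1, Abcc1, Slc31a1, Slc31a2, Abcc4, Atp7a, Mt2 and Atp7b. The library ranges of all neighbours in this order were separate. In the cisplatin libraries Atox1 stood above Mt1, at 55.1 ± 1.95 FPKM against 28.5 ± 4.08 FPKM (SD, n = 3). Abcc1 overlapped with Slc31a2, and Slc31a2 with Slc31a1, and the remaining order was as in the controls. Over all 6 libraries the mean level of Atox1 was at the 94.7th percentile of the tested genes and that of Mt1 at the 93.4th. The 3 called genes Atp7a, Mt2 and Atp7b were at the 39.8th, 22.1st and 6.04th percentile.

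The size of all these differences depended on the scaling between libraries. The total behind the deposited FPKM was 1.03 to 1.05 times the rebuilt reads on genes in the cisplatin libraries and 0.976 to 0.982 times in the control libraries, so FPKM did not set these reads to a common total. With voom on the rebuilt reads, scaled by the reads on genes, Atox1 was at 0.19 (adjusted p = 0.039) and Abcc4 at -0.10 (adjusted p = 0.22), and the median of all tested genes was 0.10. The T-cell markers as a group were higher and the ID8 markers lower with cisplatin. When the libraries were instead set to a common mean of the 22 T-cell markers, a scaling that takes these markers as unchanged, the median of all tested genes moved by -0.58 to -0.55. All 9 genes then passed in the lower direction (limma, adjusted p under 0.05), where 66.1% of all tested genes did so and 4.74% passed in the higher direction. Mt1 was then at -1.70, Mt2 at -1.86, Atp7a at -1.64 and Atp7b at -2.72 on the log2 scale. Atox1 changed sign, to -0.46 (adjusted p = 1.4e-04), and Abcc4 reached -0.75 (adjusted p = 7.6e-05). Relative to the median of all genes, which is the same under either scaling, Atox1 was at 0.08, Abcc4 at -0.21, Mt1 at -1.15 and Atp7b at -2.17. Under quantile normalization, which moved the median of all genes to 0.16, Abcc4 was at -0.02 (adjusted p = 0.78, limma).

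**Figure D4:**
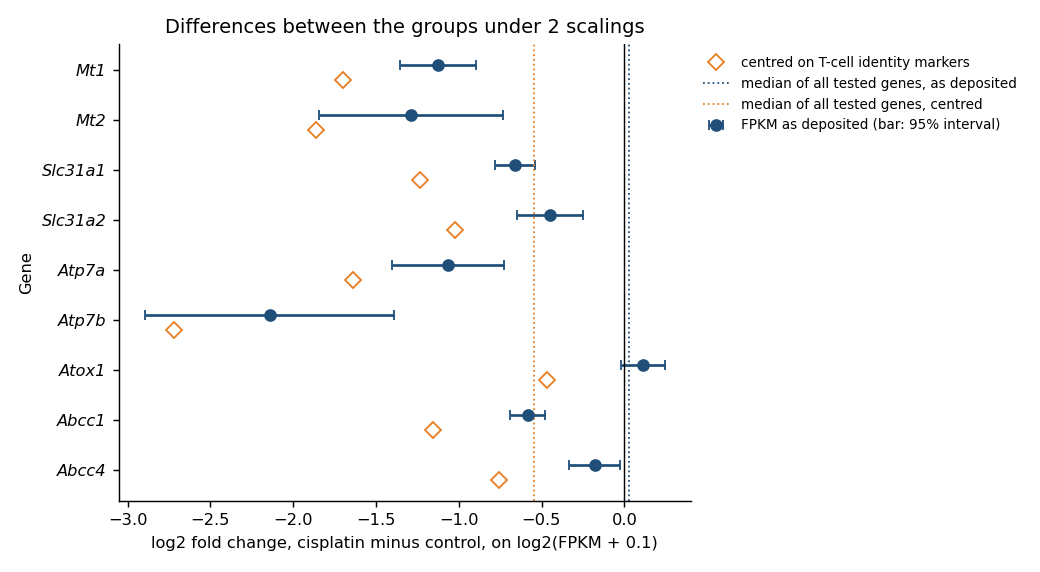
Log2 fold change of each gene, cisplatin minus control, on FPKM as deposited (blue circles with 95% intervals) and with libraries centred on T-cell markers (orange diamonds), with the median of all tested genes under each scaling as a dotted line. Atp7b lies furthest below both medians, and Atox1 lies slightly above its median under either scaling.

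Other genes of metal and platinum handling were counted from lists of 70 genes outside the 9, of which 51 were tested. Of these 51 genes, 13 were called lower and 2 were called higher. Among all 15874 tested genes, 2034 (12.8%) were called lower and 653 (4.11%) higher.

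Of 25 zinc handling genes 18 were tested, 7 fell and 6 rose, with a median log2 fold change of -0.03. The shares among all tested genes were 29% lower and 27.5% higher, and no list was tested against them. Slc30a1, the plasma membrane zinc exporter whose gene is, like Mt1, a target of MTF1, fell from 8.60 ± 0.387 to 3.95 ± 0.253 FPKM (SD, n = 3, log2 fold change -1.10, adjusted p = 1.8e-05, limma). The zinc importer gene Slc39a10 fell from 9.03 ± 0.525 to 3.51 ± 0.364 FPKM (log2 fold change -1.34, adjusted p = 2.5e-05, limma), and Slc30a9 by 0.78 on the log2 scale. Mtf1 itself rose, from 3.10 ± 0.306 to 4.60 ± 0.207 FPKM (log2 fold change 0.56, adjusted p = 0.0019, limma), in the opposite direction to Mt1, Mt2 and Slc30a1. The importer gene Slc39a4 and the secretory pathway transporter gene Slc30a5 also rose (log2 fold changes 0.72 and 0.31). After centring on the T-cell markers 15 zinc genes passed lower and 0 higher (66.1% and 4.74% of all tested genes), with Mtf1 at -0.02 (adjusted p = 0.89, limma), Slc39a4 at 0.15 and Slc30a5 reversed to -0.27.

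Of 24 copper handling genes 21 were tested, 12 fell and 2 rose, with 8 called lower and a median log2 fold change of -0.54. Among all tested genes 29% passed lower, 27.5% passed higher and 12.8% were called lower. The 3 largest falls were not in transport but in copper-dependent enzymes of the extracellular space and cell surface. Lox, which cross-links collagen and elastin, fell from 34.4 ± 0.436 to 0.991 ± 0.275 FPKM (SD, n = 3, log2 fold change -5.02, adjusted p = 1.6e-06, limma). Loxl2, a relative of Lox, fell from 38.7 to 2.53 FPKM, and the ferroxidase gene Hephl1 from 5.87 to 0.328 FPKM. The 5 other genes called lower, named after their values were seen, were Cp, Steap2, Sod3, Loxl1 and Loxl4. The rises were those of Ccs, the copper chaperone for superoxide dismutase 1, from 49.9 ± 4.10 to 75.9 ± 2.56 FPKM (log2 fold change 0.61, adjusted p = 2.2e-04, limma), and of Slc25a3, a mitochondrial carrier of phosphate and copper (log2 fold change 0.25). After centring on the T-cell markers, 19 copper genes passed lower and 0 higher (66.1% and 4.74% of all tested genes), with Ccs at 0.03 and Slc25a3 reversed to -0.32.

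The list of other transporters linked to platinum and drugs held both of the called rises. Of 19 genes 12 were tested, 6 fell and 2 rose, with a median log2 fold change of -0.31, beside 29% lower and 27.5% higher among all tested genes. Abcb1a and Abcb1b, which encode the 2 mouse forms of P-glycoprotein, rose from 3.19 ± 0.370 to 10.5 ± 0.244 FPKM and from 2.63 ± 0.127 to 8.44 ± 0.265 FPKM (SD, n = 3, log2 fold changes 1.69 and 1.65, adjusted p = 7.8e-06 and 2.1e-06, limma). They are close paralogues, so reads may be shared between them, and after centring on the T-cell markers both were still higher (log2 fold changes 1.12 and 1.07, adjusted p = 3.4e-05 and 9.3e-06, limma). Abcc5 (MRP5), a relative of Abcc1 and Abcc4, fell from 22.4 ± 1.21 to 10.4 ± 0.324 FPKM (log2 fold change -1.11, adjusted p = 4.8e-06, limma). Abcg2 and Lrrc8e, the latter a subunit of the volume-regulated anion channel, fell by 1.07 and 2.57 on the log2 scale.

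**Figure D5:**
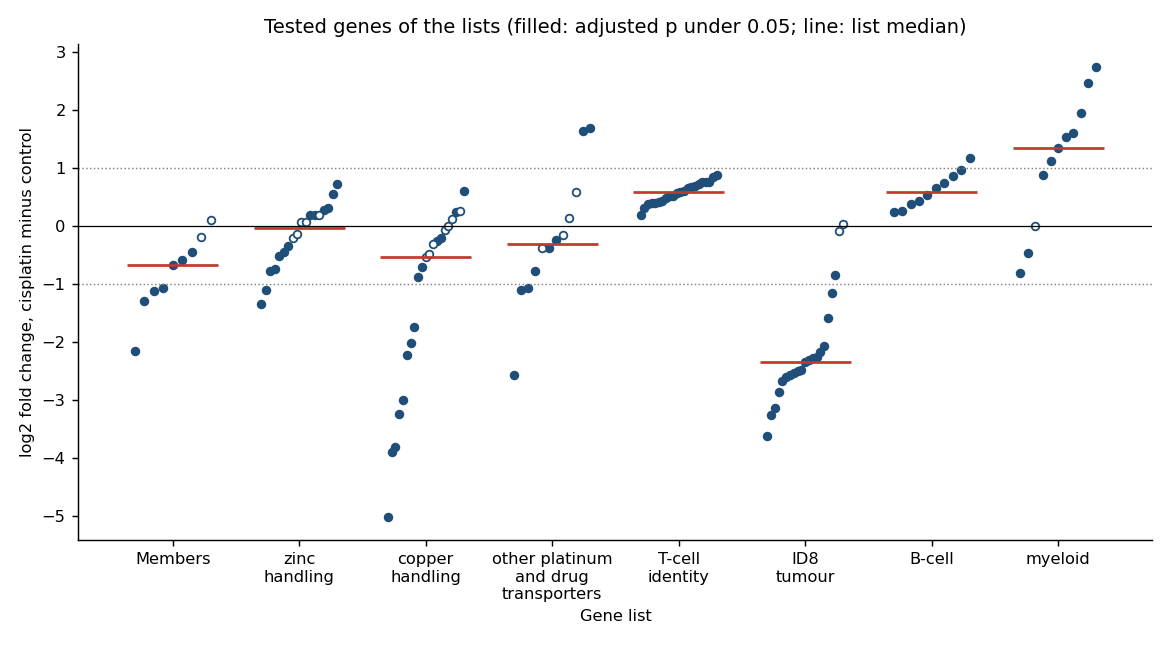
Log2 fold change, cisplatin minus control, on FPKM as deposited of each tested gene in the lists (filled points passed at an adjusted p under 0.05, open points did not, red lines mark list medians, dotted lines mark a log2 fold change of 1 in either direction, and the column labelled Members holds the 9 genes). The median of the 9 genes, -0.66, lies between that of the T-cell markers, 0.58, and that of the ID8 markers, -2.34. So do the medians of the zinc (-0.03), copper (-0.54) and other transporter lists (-0.31) and of all tested genes (0.03). Those of the B-cell (0.60) and myeloid lists (1.35) lie above 0.58.

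For scale, the abundant markers of each list moved as follows. Tcf7 and Trbc2 of the T-cell list had mean levels of 501 and 487 FPKM in cisplatin against 318 and 288 FPKM in control libraries. Krt19 and Sparc of the ID8 list had 52.9 and 27.8 FPKM against 646 and 202 FPKM. Ighm and Cd79b of the B-cell list had 3220 and 124 FPKM against 1433 and 73.4 FPKM. In the myeloid list Lyz2 was higher (89.7 against 30.8 FPKM) and Mpeg1 lower (34.3 against 60.1 FPKM). The log2 fold changes of Mt1, Mt2 and Atp7a were less negative than the median of the ID8 markers (-2.34), and that of Atp7b was near it.

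The genes with the profile most like each of the 9 were taken as the 3 with the smallest root-mean-square distance between centred log2(FPKM + 0.1) values over the 6 libraries, among 13639 genes. Such likeness over 2 groups of 3 libraries follows mainly the size of the group difference. For Mt1 they were Alad, an enzyme of haem synthesis that binds zinc, with a distance of 0.0408, Zbtb46 (0.0535) and Vamp8 (0.0573). For Mt2 they were Vegfc, Sap30 and Pltp at 0.133 to 0.175, a looser match than for any other of the 9 genes. For Atp7a they were Arg1, Usp43 and Gpam, and for Atp7b Ankrd37, Gadd45a and Samd4. For Slc31a1 they were Bmt2, Rlf and Arhgap12, and for Slc31a2 Pak1, Tab1 and Ccdc77. For Atox1 they were 2610001J05Rik, Akap10 and Fcf1, for Abcc1 Edem3, Clip1 and Pxn, and for Abcc4 Nup88, Gpkow and Gorasp2.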

How the data were processed

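Messenger RNA of 6 T-cell libraries, 3 per group, was sequenced, and groups were taken from the sample labels. The authors deposited FPKM values per gene, with the gene length in bases. The paper names LifeScope for alignment and counting, whereas the submitters' processing notes name fastp, HISAT2 2.0.5, featureCounts 1.5.0-p3 and mm10, and this difference could not be settled. Gene coordinates equalled those of GENCODE M21 (GRCm38) for all 9 genes and for 53499 of 54409 genes found in both. Strand handling and the treatment of reads shared between genes are not given in the sources used here.

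Reads were rebuilt from FPKM times length (100% of values within 0.1 of a whole read), and give the depth, the counting error and the values for voom, which was run as an alternative only. The table held 0 columns of other samples. No 2 libraries of a group were identical, and replicates differed by more than sampling noise (chi-square per degree of freedom 5.37 to 6.47). Groups were compared by limma 3.58.1 in R 4.3.3 (lmFit, eBayes with trend) on log2(FPKM + 0.1), a scale that understates changes of low genes, over genes averaging 0.5 FPKM or more, with Benjamini-Hochberg adjustment. Calls needed an adjusted p-value under 0.05 and a 2-fold change. Ratios were tested by exact permutation. Python 3.11.15, numpy 2.4.6, pandas 2.3.3, scipy 1.17.1 and matplotlib 3.10.9 were used, and the fits were tested on simulated data.

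The 9 genes, the lists and the tests were chosen with earlier results of these data known. Named genes were all 9, the 3 largest falls and rises that passed in each pathway list (mean of 1 FPKM or more in the group with the higher level), the 2 most abundant genes of each marker list in the group where the list is higher, genes within 100 kb of Mt1 or Mt2, and the 3 nearest profiles. Alternatives were other pseudocounts, filters and scalings, TPM, voom on rebuilt reads, no trend, the replicate number as a block, no fold minimum, and leaving out each library. Promoters came from RefSeq. Protein sequences were not analysed here.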

Additional observations from a re-analysis of the deposited data

How the results depend on the processing

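Over 17 alternative settings, the fall of Mt1 ranged from -1.70 to -1.04 (log2), with adjusted p from 1.1e-11 to 7.2e-04 (limma), and it was called in each. Mt2, Atp7a and Atp7b, which were not tested with a mean of at least 5 FPKM, passed as lower in the other 16, with adjusted p of at most 0.017, 0.0051 and 0.0096, and Slc31a1, Slc31a2 and Abcc1 in all 17, with at most 7.8e-04, 0.015 and 8.4e-04. Atox1 reversed to -0.46 after centring on the T-cell markers, and passed as higher with voom on rebuilt reads (0.19, adjusted p = 0.039). Abcc4 also passed with the filter at 5 FPKM (adjusted p = 0.044) and with median of ratios scaling (adjusted p = 0.045). The number of the 9 genes called lower was 1 with a pseudocount of 1 and with the filter at 5 FPKM, 7 after centring and 7 without the fold minimum, and 3 to 4 when each library was left out. With a pseudocount of 1, Mt2 was at -0.80, Atp7a at -0.84 and Atp7b at -0.85, since a larger pseudocount shrinks the changes of low genes. Atp7a was at -0.87 under quantile normalization. Among all genes, calls in the lower direction numbered 903 with the filter at 5 FPKM, 3738 after centring and 4603 without the fold minimum, beside 2034, and those in the higher direction 311 with a pseudocount of 1, 242 with the filter at 5 FPKM, 141 after centring, 1127 with voom and 4360 without the fold minimum, beside 653. Of the listed genes outside the 9, 7, 22 and 25 were called lower with the filter at 5 FPKM, after centring and without the fold minimum, and 5 and 10 higher with voom and without the fold minimum, while leaving out a library gave 13 to 14 lower and 2 higher. The cause of these shifts was not tested.

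Deviations of libraries with the same replicate number correlated at 0.02, -0.06 and -0.02. These values showed no pairing by number, but they cannot settle whether the samples were paired by design. With the replicate number as a block, 4 of the 9 genes were called lower, and no call on them changed (replicate block, 2011 lower and 651 higher over all genes). The best match of each library was not always its own number. Low levels limit Mt2, at 14 to 52 reads per library, and Atp7b in the cisplatin libraries, at 24 to 52 reads.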
